A study of Homo sapiens with 4 samples.

Results

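The regions described here are promoters of long noncoding RNA (lncRNA) genes that stand away from protein-coding genes, in pancreatic progenitor (PP) cells. They were chosen by position alone. From the GENCODE release 44 annotation of hg38, the starts of genes of type lncRNA on chromosomes 1 to 22 and X were kept when they lay more than 5.0 kb from every protein-coding gene start, and a region was a member when it overlapped 1.0 kb on either side of such a start. Of 18756 lncRNA genes, 14454 had a stand-alone start, and 3839 of these starts (26.6%) had at least 1 accessible region. This gave 3979 member regions, 2.42% of the 164301 merged regions of the 4 peak lists. The PP cells were differentiated from MEL1, an established human embryonic stem cell line that the methods name MEL1 INS GFP/W because it carries GFP at the insulin locus, and cultured for 7 days in EF6 medium, which holds EGF, bFGF and 616452 (an inhibitor of the TGFβ receptor). The DMSO group (2 libraries) received the solvent in this medium. The I-BET151 group (2 libraries) received 1 μM I-BET151, an inhibitor of the BET bromodomain proteins, in the same medium (EF6I). All libraries came from derivatives of 1 cell line, 50000 cells each, and the labels do not say whether replicates were separate differentiations, so that the spread between them may be technical.

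An lncRNA gene is transcribed and often spliced like a protein-coding gene, but its RNA is not translated into a known protein. Some lncRNAs act as RNA on chromatin or on proteins, some mainly carry a microRNA or small nucleolar RNA (snoRNA) that is cut out of them, and for most no function is known. BET proteins bind acetylated histones at active promoters and enhancers and help RNA polymerase II to elongate. ATAC-seq inserts adapters with the Tn5 transposase where DNA is open, so a peak at an lncRNA start marks accessible chromatin there and not the level of its RNA.

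The sequences around the summits (the highest point of the peak) of named promoters from 5 groups are shown, because these groups carry the comparisons that follow. Each is the sequence of hg38 within 50 bp of the summit, written in the direction of the lncRNA, with matches to the consensus words given below in capitals. The first pair, GIHCG and LINC01572, were among the strongest promoters in all 4 libraries, and the capitals in GIHCG mark the ETS word CCGGAAGT on the other strand.
GIHCG, chr12:57936193-57936293, minus strand: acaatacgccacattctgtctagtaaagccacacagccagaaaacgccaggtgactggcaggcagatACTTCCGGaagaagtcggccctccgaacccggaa
LINC01572, chr16:72665013-72665113, minus strand: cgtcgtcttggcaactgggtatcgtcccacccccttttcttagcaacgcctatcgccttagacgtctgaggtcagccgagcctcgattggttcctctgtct
HM13-IT1 and CCDC13-AS1 rose in rank with I-BET151, and neither window held a match.
HM13-IT1, chr20:31563012-31563112, plus strand: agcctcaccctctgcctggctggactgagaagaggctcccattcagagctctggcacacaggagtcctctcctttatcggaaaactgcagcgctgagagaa
CCDC13-AS1, chr3:42732366-42732466, plus strand: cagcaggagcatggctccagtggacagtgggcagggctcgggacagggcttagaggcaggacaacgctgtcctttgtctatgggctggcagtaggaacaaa
FTX and the second region of MIR17HG fell in rank. The capitals in FTX mark the NRF1 word GCATGCGC, found on both strands.
FTX, chrX:74293519-74293619, minus strand: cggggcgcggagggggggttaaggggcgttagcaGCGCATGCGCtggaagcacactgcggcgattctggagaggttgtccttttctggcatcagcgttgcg
MIR17HG, chr13:91349202-91349302, plus strand: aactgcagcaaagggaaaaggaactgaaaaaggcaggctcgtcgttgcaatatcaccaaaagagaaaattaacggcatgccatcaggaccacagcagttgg
PEX5L-AS2 and APOC1P1 were called with I-BET151 only, and the capitals in PEX5L-AS2 mark the GATA word AGATAAG on the other strand.
PEX5L-AS2, chr3:179898136-179898236, plus strand: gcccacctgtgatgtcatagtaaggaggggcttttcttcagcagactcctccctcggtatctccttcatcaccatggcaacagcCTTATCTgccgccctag
APOC1P1, chr19:44927285-44927385, plus strand: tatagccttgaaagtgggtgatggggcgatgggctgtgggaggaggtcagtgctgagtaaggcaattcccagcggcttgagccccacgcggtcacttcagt
LINC01596 and FAM225B were called with DMSO only, and the LINC01596 window holds a repeated unit.
LINC01596, chr4:189881251-189881351, plus strand: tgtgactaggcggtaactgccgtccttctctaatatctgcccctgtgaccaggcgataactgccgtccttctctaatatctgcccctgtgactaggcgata
FAM225B, chr9:113111859-113111959, minus strand: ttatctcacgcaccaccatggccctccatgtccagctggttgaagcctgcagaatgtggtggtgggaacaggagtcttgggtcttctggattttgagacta

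Replicates 1 and 2 had 82568 and 38295 peaks in the DMSO lists, and 84995 and 111324 in those of I-BET151. The genome-wide background in the lists corresponds to 38.7 and 36.6 M reads for DMSO and to 12.5 and 16.0 M reads for I-BET151. The DMSO replicate 2 list stood apart as the shortest, and each result is therefore also given without a library where that library decides it. The fold enrichment of a peak is the pileup at its summit over the local background, both as MACS2 computed them, and a percentile is the rank of a peak by fold enrichment within its own list, with 100 as the strongest. Of 10 promoters of pancreatic progenitor genes, 7 and 6 were called with DMSO and 9 and 9 with I-BET151. Merged regions at protein-coding promoters were called in 77.1% and 68.1% of cases with DMSO and 83.2% and 90.9% with I-BET151. These shares leave out promoters without a peak in any list. PTF1A was called in no list, and PDX1 and GATA4 were called with I-BET151 only. Promoters of pluripotency genes were called 0, 0, 0 and 1 times of 4, those of endocrine genes 1, 0, 2 and 1 times of 5, those of liver genes 1, 1, 1 and 2 times of 3, those of mesenchyme genes 2 times of 3 in each library, and those of blood and endothelial genes in no library. The part of other cells in the results was not tested, and more open chromatin per cell and more cells with open chromatin cannot be told apart.

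More of the lncRNA promoters were called with I-BET151 than with DMSO, in the same direction as regions elsewhere in the genome. DMSO replicates 1 and 2 called 55.8% and 34.5% of the 3979 members, and I-BET151 replicates 1 and 2 called 59.3% and 76.5%. The groups did not overlap, but DMSO replicate 1 and I-BET151 replicate 1 lay close together. On average 45.1% ± 15.1 of the members were called in a DMSO library and 67.9% ± 12.1 in an I-BET151 library (SD, n = 2 each), a difference of 22.8 percentage points. All merged regions were called in 47.9% and 22.9% of cases with DMSO and 49.2% and 67.7% with I-BET151 (35.4% ± 17.7 and 58.4% ± 13.1, SD, n = 2 each), so the difference in lncRNA promoters was no larger than that over all regions. It depended on the length of the lists: with the same number of peaks from each list it was 5.38 points, and when peaks under 10 on the −log10 p scale were dropped it was 44.4 points. An exact permutation test (two-sided) gave p = 0.333. With 2 against 2 libraries it cannot go lower, so no comparison of single values per library could pass 0.05. Without DMSO replicate 1 the difference was 39.0 points, and without DMSO replicate 2 it was 12.3 points. Promoters of protein-coding genes (13636 regions within 1.0 kb of a protein-coding start) were called in 72.6% ± 6.37 of cases with DMSO and 87.0% ± 5.42 with I-BET151 (SD, n = 2 each), a difference of 14.4 points. Regions away from both kinds of promoter differed by 23.9 points, from 31.6% to 55.5%. The lncRNA promoters thus lay between these classes in every library. Their share minus that of the protein-coding promoters was −27.5 ± 8.68 points with DMSO and −19.1 ± 6.68 points with I-BET151 (SD, n = 2), and these gaps did not differ beyond their spread (two-sided exact permutation p = 0.667).

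By pattern of calls, 703 members (17.7%) were gained: both libraries with I-BET151 had the peak and no library with DMSO did. Over all regions the gained share was 17.0%, so the share among lncRNA promoters was near the background. In the other direction 62 members (1.56%) were lost, with the peak in both DMSO libraries but not in those with I-BET151, against 2.37% of all regions. Called in all 4 lists were 1087 members (27.3%), against 15.6% of all regions. The remaining members were called in 1 list (1555) or in other combinations of lists, of which DMSO replicate 1 with I-BET151 replicate 2 was the most frequent pair (136 members). Without I-BET151 replicate 1 there were 1401 gained members (37.4%, against 43.7% of all regions), and with the same number of peaks from each list there were 192 (9.40%, against 9.22%). The number of lost members was 116 without DMSO replicate 1 (3.41%, against 4.52% of all regions), 635 without DMSO replicate 2 (16.2%, against 20.7%) and 151 without I-BET151 replicate 2 (4.6%, against 5.75%). The replicate numbers gave unequal pictures. In the replicate 1 pair, 1002 members (25.2%, against 28.1% of all regions) had a peak with I-BET151 alone and 860 (21.6%, against 26.8%) with DMSO alone. In the replicate 2 pair, 1792 members (45.0%, against 48.6%) had a peak with I-BET151 alone and 122 (3.07%, against 3.84%) with DMSO alone. The shortest peak, which follows the read extension of the caller, was 200 bp in both replicate 1 lists but 233 bp (DMSO) and 256 bp (I-BET151) in the replicate 2 lists, and its part in the difference between the pairs was not tested.

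The members differed in position and base composition. A member's summit lay a median of 355 bp from the lncRNA start, 2097 of them upstream and 1882 downstream, and 1804 regions (45.3%) covered the start itself. Most members were intergenic (2554), while 1153 lay at starts inside a protein-coding gene on the opposite strand and 272 inside one on the same strand. Although no member lay within 1.0 kb of the start of a protein-coding gene, 487 lay that close to the start of some protein-coding transcript, and 205 served more than 1 lncRNA. Of the members, 1405 had at least 1 lncRNA with a gene symbol. Regions with a summit within 100 bp of the lncRNA start were called in all 4 lists in 39.6% of 897 cases, against 18.4% of the 1595 with a summit more than 500 bp away. By name, promoters of divergent transcripts (symbols ending in DT, which start opposite a neighbouring gene) were called in all 4 lists in 20 of 26 cases (76.9%). Antisense transcripts were so in 172 of 414 (41.5%). LINC genes, the intergenic lncRNAs without a functional name, were called in all 4 lists in 170 of 670 cases (25.4%). The share was 27.3% over all members and 15.6% over all regions. Members more than 100 kb from a protein-coding start were gained in 20.9% of 1287 cases and called in all lists in 20.8%. Members at 5 to 20 kb were gained in 15.5% of 995 cases and called in all lists in 33.5%. The gained share was 17.7% over all members and 17.0% over all regions, and all regions were not divided by distance. Around the distance limit of 5.0 kb itself, 80 regions at 5 to 6 kb were called in all lists in 46.2% and gained in 12.5% of cases. The 86 regions at 4 to 5 kb, which are not members, gave 33.7% and 18.6%.

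CpG-rich promoters were called in all 4 lists more often than the others. A summit was counted as CpG-rich when the bases within 100 bp of it had a GC content of at least 55% and an observed to expected CpG ratio of at least 0.6, as is usual for CpG islands. This held for 859 members (21.6%), compared with 9.03% of all regions and 69.9% of the protein-coding promoters. By name it held for 76.9% of the divergent, 35.0% of the antisense and 17.8% of the LINC promoters. By distance it held for 13.4% of the members more than 100 kb from a protein-coding start and 31.1% of those at 5 to 20 kb. Its part in the calls of these classes was not tested. Of the CpG-rich members 58.6% were called in all 4 lists, against 18.7% of the other 3120. CpG-rich members were called in 70.0% and 62.5% of cases with DMSO and 86.7% and 92.5% with I-BET151, and the other members in 51.9%, 26.8%, 51.8% and 72.0%. In each library the CpG-rich members were ahead, by 26.9 ± 12.5 points with DMSO and 27.7 ± 10.2 points with I-BET151 (SD, n = 2), without a difference between the conditions beyond the spread (two-sided exact permutation p = 1.00). The gained share was alike, 17.2% of the CpG-rich and 17.8% of the other members. Lost members were rare in both, 6 CpG-rich (0.698%) and 56 other regions (1.79%), against 0.559% and 2.55% of all such regions. In the replicate 1 pair the classes stood apart: 4.89% of the CpG-rich members were called only with DMSO, against 26.2% of the others. Over the whole genome these shares were 5.10% and 29.0%. All CpG-rich regions were called in all lists in 62.8% of cases and gained in 14.3%.

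**Figure D1:**
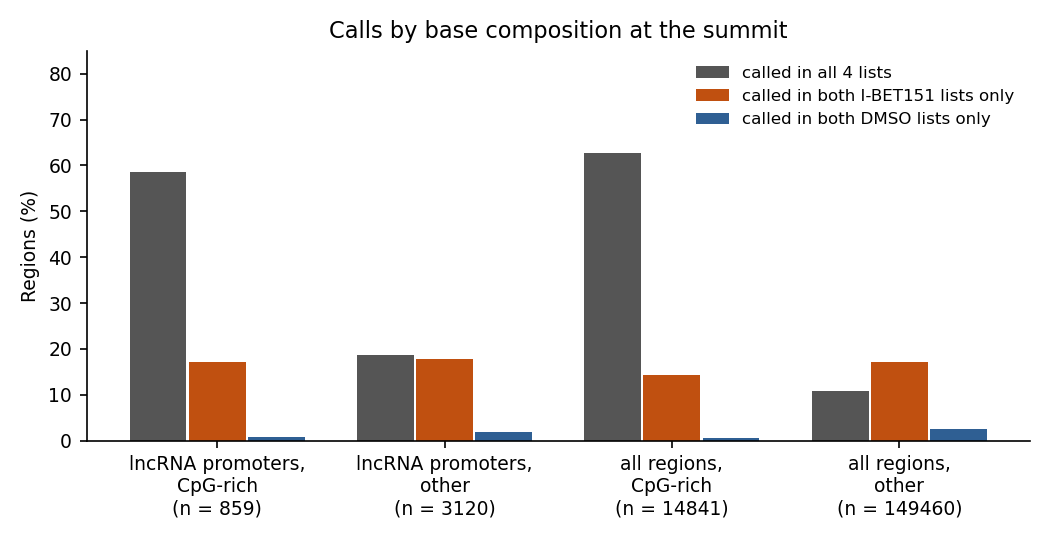
Share of regions, in percent (y axis), that were called in all 4 lists (grey), in both I-BET151 lists only (orange) or in both DMSO lists only (blue), for CpG-rich and other summits among lncRNA promoters and among all regions. CpG-rich lncRNA promoters were called in all lists in 58.6% of cases and other lncRNA promoters in 18.7%, while the gained shares were 17.2% and 17.8%.

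Consensus words of 16 factors were searched within 100 bp of the summit on both strands, and a match is a description of the letters only. Among members called in all 4 lists, the GC box GGGGCGGGG was present in 12.1%, the ETS word CCGGAAGT in 3.77%, the NRF1 word GCATGCGC in 2.21% and the cAMP response element TGACGTCA in 2.02%. Over all regions called in all 4 lists they were present in 9.79%, 2.92%, 1.71% and 1.30%, and over all 164301 regions in 2.52%, 0.642%, 0.414% and 0.351%. In protein-coding promoters the GC box and ETS words were present in 17.9% and 5.20%. The CTCF consensus was present in 30 of the 703 gained members (4.27%), against 2.24% of all members, 4.23% of all gained regions and 1.89% of all regions. CTCF is a zinc finger protein that anchors chromatin loops. It was found in 0 of the 62 lost members and in 0.385% of all lost regions. The AP-1 word TGANTCA was present in 10.2% of the members, against 11.2% of all regions. In the gained members it was present in 7.54%, against 10.0% of all gained regions. Among words of pancreatic and endodermal factors, TGTTTAC of the FOXA proteins was in 3.72% of members and 4.63% of all regions. The word AGATAAG of GATA factors was in 4.07% and 5.26%, GTTAATNAT of HNF1 in 1.28% and 1.53%, and TATTGATT of HNF6 in 0.854% and 1.88%. The other words were in 0.603% to 5.86% of the members: CGTGGGAA of RBPJ, AAGATGGC of YY1, CTAATTA of homeobox proteins, ACAATGG of SOX proteins, CATTCCA of TEAD proteins and TATAAA of the core promoter. Words that overlapped were each counted.

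The 8 strongest named promoters were chosen by the lowest of their 4 percentiles, so their place near the top of every list follows from this choice. GIHCG, an lncRNA first described in liver cancer, lies at chr12:57935844-57936488 on the strand opposite to ATP23 and reached percentiles of 99.4 and 99.0 with DMSO and 99.3 and 99.8 with I-BET151. Its summit, shown above, held 49, 58, 73 and 150 reads in the 4 libraries. LINC01572 shares an intergenic region (chr16:72664471-72665379) with ZFHX3-AS1, at 99.9 and 98.6 with DMSO and 99.8 and 98.9 with I-BET151. DANCR, a host of a snoRNA that is known to hold back differentiation of progenitor cells, shares the region at chr4:52711896-52713195 with LINC01618. There the percentiles were 98.4 and 98.8 with DMSO and 97.1 and 98.6 with I-BET151. The others were CHFR-DT, SCOC-AS1, IFT74-AS1, LINC00663 and ANKRD33B-AS1, with no percentile under 97.3. Of these 8, CHFR-DT, SCOC-AS1 and IFT74-AS1 lie within 1.0 kb of a protein-coding transcript start. None of this group passed the rank test, and ANKRD33B-AS1 had the smallest p-value among them (rank shift 0.98 ± 0.39, SE, limma adjusted p = 0.137).

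Among the 1087 members called in all 4 lists, a small number moved in rank. Ranks by fold enrichment were turned into normal scores in each list and compared with limma over all 25627 regions called in all lists, which leaves out any shift shared by a whole library. At a Benjamini-Hochberg adjusted p under 0.05, 47 members (4.32%) rose with I-BET151, against 3.41% of all regions tested, and 13 (1.20%) fell, against 1.96%. The percentiles of the 2 groups of libraries did not overlap in any of these 60 regions. The test chose them by ranks of the same fold enrichments, so this is not separate support. The same share among all 875 risen and 503 fallen regions is not given. A library left out leaves its group with 1 library, which is then assumed to vary like the other group. Without DMSO replicate 1 the counts were 8 and 5, without DMSO replicate 2 they were 15 and 3, without I-BET151 replicate 1 they were 53 and 27, and without I-BET151 replicate 2 they were 82 and 48. The counts also depended on the scaling. Shares over all regions are not given for other scalings or with a library left out, so these counts have no background. When the pileup in reads was compared after centring each library on its median, 8 members rose and 39 fell; of the 47 risen members 39 were again higher and 5 passed, and of the 13 fallen members 11 were again lower and 7 passed. When ranks were taken by −log10 p, the directions of all 60 were the same, but limma called 0 members upward and 2 downward, 1 of them among the 13, with 116 and 80 at an unadjusted p under 0.05. The median percentile of members called in all lists was 79.7 and 63.7 with DMSO and 80.1 and 83.3 with I-BET151, beside 80.8, 64.1, 80.1 and 84.3 for all regions called in all lists. The members' difference was 10.0 (71.7 ± 11.3 against 81.7 ± 2.23, SD, n = 2, two-sided exact permutation p = 0.333). It was 19.6 without DMSO replicate 1 and 4.73 without DMSO replicate 2, and it turned to −1.84 when the same number of peaks was taken from each list.

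**Figure D2:**
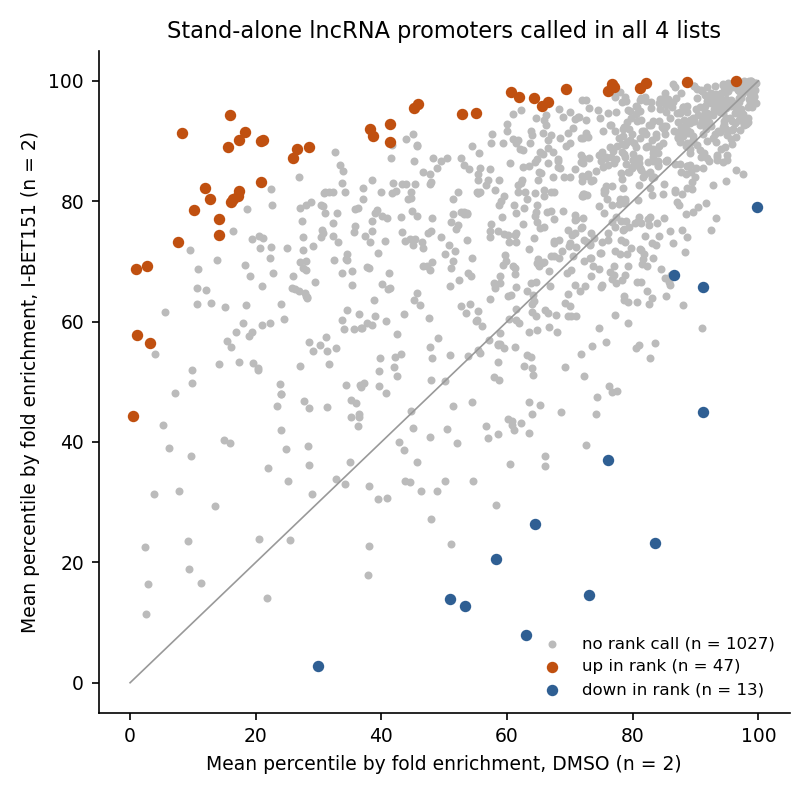
Mean percentile by fold enrichment with I-BET151 (y axis, n = 2) against DMSO (x axis, n = 2) for the 1087 stand-alone lncRNA promoters called in all 4 lists, with the line of equal percentiles. The 47 promoters that rose in rank (orange) lie above the line and the 13 that fell (blue) lie below it, and 1027 (grey) were not called.

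Of the 47 risen members 21 had a gene symbol, and 7 are described here. HM13-IT1, transcribed from an intron of the signal peptide peptidase gene HM13 (chr20:31562738-31563396, 104 bp upstream of the start), was at percentiles 23.3 and 8.45 with DMSO and 94.5 and 94.2 with I-BET151. Its rank rose by 2.53 ± 0.38 in normal scores (SE, limma adjusted p = 0.00496), and its pileup went from 33 and 26 reads to 53 and 111. CCDC13-AS1 (chr3:42732041-42733180), antisense to CCDC13, was at 0.242 and 16.3 with DMSO and 93.8 and 88.9 with I-BET151. GLYCTK-AS1, whose DMSO levels were the lowest of the 7 on average, went from 0.706 and 0.120 to 36.7 and 52.0. The summit of its region lay 1249 bp upstream of the start, and the pileup went from 27 and 24 reads to 18 and 42. FAM218A (chr4:164956626-164957315), opposite to TRIM61, went from 81.4 and 71.9 to 99.4 and 99.6, near the top of the lists. NUBPL-DT (chr14:31560959-31561754), divergent from the gene of a factor that assembles mitochondrial complex I, went from 73.3 and 65.5 to 98.0 and 99.3. LINC01271, at 131 kb from CEBPB, went from 25.3 and 9.39 to 92.5 and 87.9, and CYP4A22-AS1, which shares its region with LINC00853, from 13.4 and 29.0 to 89.5 and 90.7. CCDC13-AS1 and NUBPL-DT lie within 1.0 kb of a protein-coding transcript start. The limma adjusted p-values of the 7 ran from 0.00496 to 0.0189. With the centred pileup HM13-IT1, FAM218A and NUBPL-DT passed again, at limma adjusted p = 0.0462, 0.0311 and 0.0388, while GLYCTK-AS1 turned to a lower value (−0.40 on the log2 scale, not past the threshold). Without DMSO replicate 1 the call was lost for all of the 7 except HM13-IT1, and without DMSO replicate 2 it was lost for LINC01271, FAM218A, GLYCTK-AS1 and NUBPL-DT. Without DMSO replicate 1 the rank shift of LINC01271 was 2.16, that of GLYCTK-AS1 went from 2.05 to 1.99 and that of FAM218A from 1.96 to 1.80.

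Of the 13 fallen members 5 had a gene symbol. FTX is an lncRNA of the X-inactivation centre. The region over its start (chrX:74293333-74293878, summit 5 bp downstream) was at percentiles 89.7 and 77.4 with DMSO and 22.9 and 23.6 with I-BET151. Its rank fell by 2.39 ± 0.39 in normal scores (SE, limma adjusted p = 0.00595). Its pileup was 23 and 22 reads with DMSO and 17 and 29 with I-BET151. A second FTX region, 940 bp downstream of the start (chrX:74292259-74293031), was at 88.3 and 79.6 with DMSO and 88.6 and 87.5 with I-BET151 (limma adjusted p = 0.845), and the difference between both regions was not tested. MIR17HG, the host of the miR-17-92 cluster, had a region over its start and a second one inside the gene. The second region (chr13:91348302-91349444, summit 1566 bp downstream) was at 52.8 and 53.9 with DMSO and 7.65 and 17.9 with I-BET151 (rank shift −1.71 ± 0.39, SE, limma adjusted p = 0.0237). The first region (chr13:91346956-91348096) was at 90.5 and 79.9 and then at 70.4 and 64.0, with a limma adjusted p = 0.0754. MIRLET7IHG, the host of let-7i, was at 93.8 and 88.5 with DMSO and 62.6 and 68.9 with I-BET151 (chr12:62602348-62603862, limma adjusted p = 0.0269). LURAP1L-AS1 was at 84.7 and 44.1 and then at 21.4 and 31.2 (limma adjusted p = 0.0326). LINC01986 was at 99.8 and 99.9 with DMSO and 60.9 and 97.3 with I-BET151 (limma adjusted p = 0.0167). Its region (chr3:9917-10864, summit 1277 bp upstream of the start) lies at the end of the chromosome. The central 51 bases occur 4 times on chromosomes 1 to 22, X and Y, so its reads cannot be assigned to this locus with certainty. With the centred pileup only LINC01986 of these 5 passed (limma adjusted p = 0.0251), FTX was at −0.53 on the log2 scale without passing (limma adjusted p = 0.146), and LURAP1L-AS1 and MIRLET7IHG had slightly higher values (0.18 and 0.03). Leaving out either DMSO library removed the calls of MIR17HG, MIRLET7IHG and LURAP1L-AS1, and leaving out I-BET151 replicate 1 removed that of MIR17HG. Without DMSO replicates 1 and 2 in turn, the shift was −2.01 and −1.48 for MIR17HG, −1.64 and −1.50 for MIRLET7IHG and −1.27 and −2.01 for LURAP1L-AS1. FTX and LINC01986 passed with each library left out in turn, where the spread came from the group with 2 libraries alone.

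**Figure D3:**
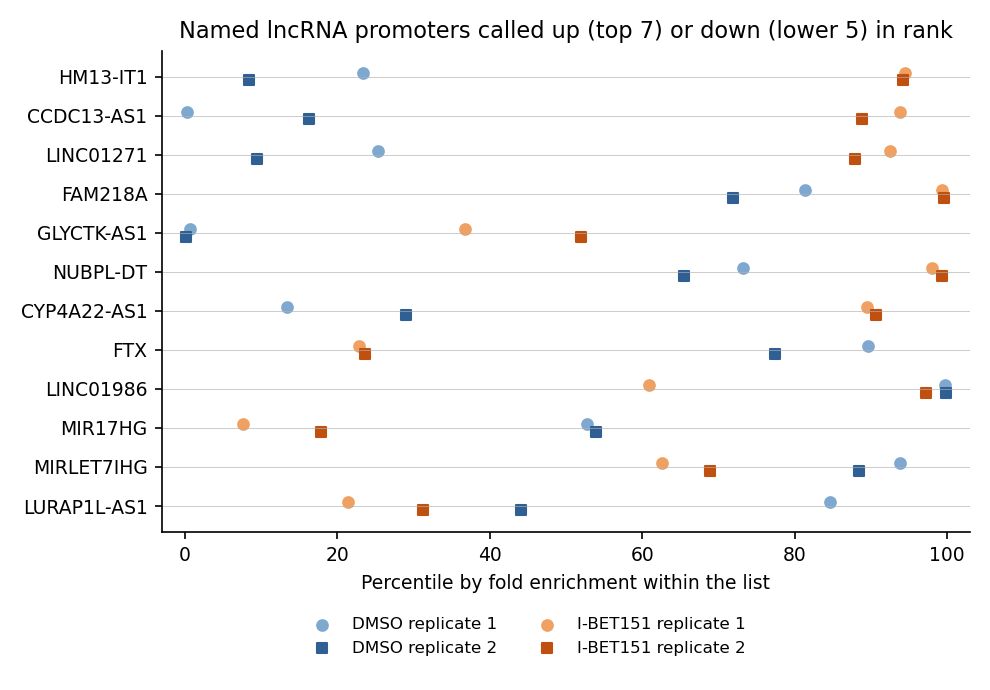
Percentile by fold enrichment within each list (x axis) for the 7 risen and the 5 fallen lncRNA promoters with a gene symbol, with 1 point per library (circles, replicate 1; squares, replicate 2; blue, DMSO; orange, I-BET151). HM13-IT1 went from 23.3 and 8.45 to 94.5 and 94.2, and FTX from 89.7 and 77.4 to 22.9 and 23.6.

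The gained members spanned nearly the whole range of both I-BET151 lists, from percentile 0.0588 to 98.7 and from 0.155 to 98.9. Their median percentiles were 48.4 and 49.7, with a median pileup of 13.0 reads in replicate 1, and gained regions over the whole genome were at 47.7 and 49.6. Of the 703, 148 were CpG-rich and 235 had a gene symbol. The strongest named one, PEX5L-AS2, is antisense to PEX5L (chr3:179898017-179898437, within 1.0 kb of a PEX5L transcript start) and was at fold enrichments of 14.0 and 13.6 with I-BET151, percentiles 98.0 and 95.6. Neither DMSO list had a peak there. XKR4-AS1, antisense to XKR4, was at 95.9 and 97.6, and LINC00630 (chrX:102768687-102769469) at 90.8 and 96.7. APOC1P1 (chr19:44927096-44927526), a transcribed copy of the apolipoprotein gene APOC1 at 12.5 kb from it, was at 91.8 and 94.5. LINC02664 and LINC02552 were at 90.3 in I-BET151 replicate 1 and at 87.7 and 87.5 in replicate 2. LINC02018 with FAM86DP (chromosome 3) and FAM86EP (chromosome 4) had identical values, 89.9 and 96.2 with 19 and 34 reads. They are near-identical copies of a gene family. Although the central 51 bases at each summit occur 1 time on chromosomes 1 to 22, X and Y, reads elsewhere in these regions may be shared between the copies. These regions rested on 19 to 33 reads in I-BET151 replicate 1 and on 26 to 48 in replicate 2.

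The 62 lost members had median percentiles of 45.6 and 21.9 in the DMSO lists, beside 45.8 and 24.3 for all lost regions, and a median pileup of 17.5 and 16.0 reads. Of these, 21 had a gene symbol. LINC01596 (chr4:189881185-189881550), near the end of the long arm of chromosome 4, was at 86.6 and 67.8 with DMSO, with 21 and 19 reads, and its window is the repeat shown above. FAM225B with FAM225A (chromosome 9, neighbouring copies) and ZDHHC20-IT1 (chromosome 13) were each at 73.3 and 50.8, with 17 and 16 reads. FAM30A, which lies in the immunoglobulin heavy chain locus and is known from B cells, was at 56.7 and 68.3. LINC01387, LINC02065, MIR4435-2HG and XXYLT1-AS1 were at 31.8 to 73.3 in DMSO replicate 1 and 36.4 to 41.6 in DMSO replicate 2. The MIR4435-2HG locus has a near-identical copy at CYTOR. The central 51 bases at its summit occur 1 time on chromosomes 1 to 22, X and Y. Reads elsewhere in the region may be shared, so the origin of its 17 and 15 reads is uncertain. None of the lost promoters described here had more than 21 reads in a library. Among all 62 lost members the highest pileup was 47 reads in DMSO replicate 1 and 48 in replicate 2.

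Lists of lncRNAs by role are given next, whether or not they moved. MicroRNA hosts were taken by symbol: 72 of them had a stand-alone start and 30 had at least 1 region, 36 regions in all. Of these, 20 (55.6%, against 15.6% of all regions) were called in all lists and 6 (16.7%, against 17.0%) were gained. The 1 lost region (2.78%, against 2.37%) was that of MIR4435-2HG. In rank 0 rose and 2 fell, the second region of MIR17HG and that of MIRLET7IHG, out of 20 tested (3.41% and 1.96% of all regions tested). At an unadjusted p under 0.05 (limma) 1 was up and 4 were down, beside 171 up and 114 down among the 1087 members tested. The median difference in percentile, with 0 for a list without a call, was 9.13, beside 10.2 over all members. Their levels varied widely. MIRLET7A1HG lay between 93.7 and 97.4 in the 4 lists, MIR181A2HG (first region) between 87.0 and 97.5, MIR9-1HG, whose microRNA is known from the nervous system, between 84.8 and 96.4, and MIR130AHG between 55.4 and 66.4. MIR29B2CHG was called in I-BET151 replicate 1 only, and MIRLET7BHG, MIR99AHG, MIR100HG and MIR23AHG had no region. MIR210HG, whose microRNA is induced by hypoxia, was at 87.9 and 71.5 with DMSO and 90.8 and 96.7 with I-BET151. MIR122HG, the host of the liver microRNA miR-122, was at 27.3 ± 27.3 with DMSO (SD, n = 2; 46.6 in replicate 1) and at 82.7 and 70.7 with I-BET151, which did not pass the test (rank shift 1.15 ± 0.43, SE, limma adjusted p = 0.116); without I-BET151 replicate 2 it passed, with the spread taken from the DMSO libraries alone. The gained ones were MIR200CHG (47.7 and 37.2), whose microRNAs keep cells epithelial, MIR7-3HG (43.7 and 28.9), a second region of MIR194-2HG, MIR205HG, MIR365BHG and MIR3663HG, with 6 to 21 reads in I-BET151 replicate 1. With the same number of peaks from each list the mean difference in percentile was 0.00 for MIR7-3HG, MIR205HG and MIR365BHG, 2.14 for MIR200CHG, 1.87 for the MIR194-2HG region and 18.5 for MIR3663HG. At their outermost starts 42 hosts had no region, but 4 of them (MIR137HG, MIR34AHG, MIR3681HG and MIR9-3HG) had a region at the start of the canonical transcript.

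Hosts of snoRNAs, which are transcribed in most cells because snoRNAs guide the modification of ribosomal RNA, were mostly called in every list. Of 17 SNHG genes with a stand-alone start 15 had a region, 16 regions in all. Called in all lists were 11 (68.8%, against 15.6% of all regions). Gained were 3 (18.8%, against 17.0%), and 0 were lost, against 2.37% of all regions. Of the 16 regions 81.2% were CpG-rich, and 62.8% of all CpG-rich regions were called in all lists. None of the 11 passed the rank test, with 0 up and 1 (SNHG25) down at an unadjusted p under 0.05 (limma). SNHG21 was at 97.6 and 92.9 with DMSO and 99.6 and 98.3 with I-BET151, SNHG15 at 97.6, 93.6, 97.5 and 96.1, and SNHG8 at 94.8, 95.0, 98.1 and 92.9. SNHG26 was the lowest of those called in all lists, at 41.6 and 14.3 with DMSO and 64.7 and 63.8 with I-BET151. The gained ones were SNHG11 (80.9 and 77.5), the first region of SNHG17 (3.74 and 50.7) and SNHG7 (56.1 and 24.5).

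**Figure D4:**
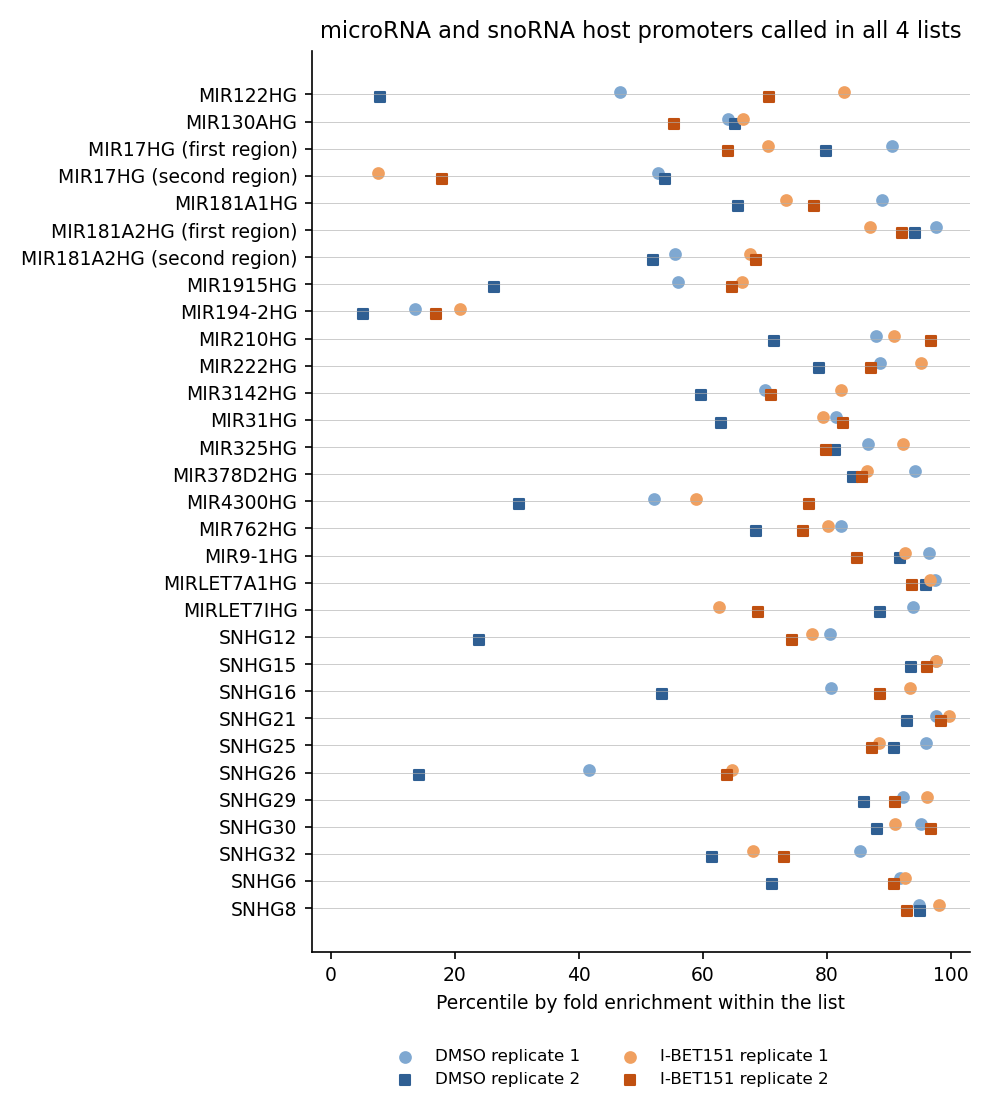
Percentile by fold enrichment within each list (x axis) for the microRNA and snoRNA host promoters called in all 4 lists, with 1 point per library (circles, replicate 1; squares, replicate 2; blue, DMSO; orange, I-BET151). The second region of MIR17HG and that of MIRLET7IHG lie lower with I-BET151 (7.65 and 17.9, and 62.6 and 68.9), and SNHG15 lies between 93.6 and 97.6.

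Widely expressed lncRNAs had regions at 7 of 8 stand-alone starts. MALAT1, an abundant nuclear RNA, was at 48.2 and 74.6 with DMSO and 86.4 and 69.8 with I-BET151, with overlapping groups. NEAT1, the scaffold of paraspeckles, was called at its start with I-BET151 only, but as one of the weakest peaks of both lists, at percentiles 0.0588 and 1.84 by fold enrichment although its pileup was 22 and 51 reads. Ranked by −log10 p, its mean percentile with I-BET151 was 32.3. NORAD, which binds Pumilio proteins, had a region at its start at 59.7, 67.8, 43.7 and 89.1, and a second region 735 bp upstream called with DMSO only (49.9 and 25.1). JPX, like FTX in the X-inactivation centre, was at 73.3 and 50.8 and then at 86.9 and 90.3 (limma adjusted p = 0.241). DLEU2, the host of miR-15a and miR-16-1, was at 81.6 ± 2.28 with DMSO and 70.4 ± 2.95 with I-BET151 (SD, n = 2 each) (limma adjusted p = 0.184). In this list 6 regions of 10 were higher with I-BET151 and 4 lower, where 68.4% of all regions and 70.9% of the members were higher, and 1, the first FTX region, passed the test.

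The lists tied to cell identity, imprinting and the HOX and MYC loci are read beside the 26.6% of all stand-alone starts that had a region. Of 7 pancreas and endoderm lncRNAs with a stand-alone start 3 had a region. HNF4A-AS1, antisense to the endodermal factor HNF4A, was gained at 39.2 and 59.7 (13 and 28 reads). Its mean difference in percentile was 49.4. It was 0.00 with the same number of peaks from each list, and 17.4 when peaks under 10 on the −log10 p scale were dropped. ROCR, upstream of SOX9, was called in DMSO replicate 1 only, and MIAT was at 79.8, 71.0, 80.1 and 83.5. LINC00261, the neighbour of FOXA2, had no region within 1.0 kb of its start in any list. SOX9-AS1 and LINC00511 had none at the outermost start, but regions at the start of their canonical transcripts were called in all lists, SOX9-AS1 at 42.9 and 40.3 with DMSO and 61.7 and 61.8 with I-BET151. Of 10 imprinted lncRNAs, which are read from the copy of 1 parent, 3 had a region. KCNQ1OT1, which silences neighbouring genes on the paternal copy, was at 47.8 and 38.7 with DMSO and 78.3 and 71.4 with I-BET151 (chr11:2699717-2700962, limma adjusted p = 0.462). PEG13 was at 57.8, 72.4, 85.2 and 84.5, and MEG9 was called in DMSO replicate 2 only. H19, MEG3, MEG8, SNHG14, GNAS-AS1, AIRN and PWRN1 had none. Of 7 pluripotency lncRNAs, LINC-ROR, ESRG and MIR302CHG among them, 0 had a region at the outermost start. LINC01108 had a region at the start of its canonical transcript, called in I-BET151 replicate 2 only (2.42, 7 reads). Of 5 lncRNAs around MYC, PVT1 was called in every list but DMSO replicate 2 (56.9, 47.6 and 56.6) and CCAT2 in all lists (79.6, 55.3, 73.0 and 90.2), without a rank call. Of 3 stand-alone lncRNAs of the HOX clusters, only HAGLROS had regions. The first was called in both replicate 1 lists at 31.1 and 8.21, and the second in DMSO replicate 1 only at 5.24.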

How the data were processed

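ATAC-seq peak lists of 4 libraries were used, 2 per condition, grouped by the sample labels. Per the methods and processing notes, the authors aligned reads to hg38 with Bowtie2 (2.2.5), discarded duplicate and mitochondrial reads, and ran MACS2 (2.1.2) on every library separately without a control. The deposited lists give a score (not used here), the fold enrichment of the summit over local background (a ratio), and each peak's p-value and q-value as −log10. The methods state a p-value of 1e-05, but 7.54% to 10.9% of the deposited peaks lay above it.

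Peaks on chromosomes 1 to 22 and X and Y were merged at an overlap of 1 bp. Because the lists hold no counts per region, the pileup in whole reads was solved from the fold enrichment and the p-value, which gave a solution for 100% of the peaks of each list. A pileup of 6 to 30 reads has a large counting error, which the SD of 2 libraries does not show. Reads per library follow from the background with the default MACS2 genome size (2.7e9) and would scale with another. For regions in all lists, ranks among these regions in each list were turned into normal scores. The scores were tested with limma (version 3.58.1, R 4.3.3, lmFit, then eBayes, Benjamini-Hochberg over all 25627 regions). Single values per library were compared with two-sided exact permutation tests. Python 3.11.15 with numpy 2.4.6, scipy 1.17.1 and pandas 2.3.3 was used for the rest. The solving of pileups, the merging, the overlap with starts and the limma fit were tested on simulated data. Genes and gene starts were those of GENCODE release 44, where a start is the outermost end of the gene.

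The members, lists and tests were chosen with earlier results of these data known. Named lncRNAs are members with a gene symbol: the 8 with the highest lowest percentile, the 8 of smallest adjusted p in each direction, the 8 gained and the 8 lost ones of highest fold enrichment, and those on role lists. A risen promoter that this rule names is not reported here. Alternatives were a threshold of 10 on −log10 p (called stricter), lists cut to equal length, an overlap of 50%, a window of 250 bp, a distance of 20 kb, removal of members at protein-coding transcript starts, other scalings, each library left out and the replicate number as a block. In these, merged regions were kept and peaks were filtered. The threshold of the methods and a crossed pairing were added after seeing the data.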

Additional observations from a re-analysis of the deposited data

How the results depend on the processing

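The difference in the share of members called with I-BET151 was 22.8 points as reported, 44.4 with the stricter threshold, 5.38 with equal numbers of peaks, and 12.3 to 39.0 with a library left out. The number of gained members was 192 with equal numbers of peaks, when 9.22% of all regions were gained against 9.40% of members. In a window of 250 bp it was 434 (17.8%, against 17.0% of all regions). With a library left out it was 771 to 1401 (19.6% to 37.4%, against 18.3% to 43.7% of all regions). The number of lost members was 5 with the stricter threshold (0.226%, against 0.269% of all regions) and 38 with the threshold of the methods (1.05%, against 1.94%). It was 29 in the 250 bp window (1.19%, against 2.37%). With a library left out it was 67 to 635 (1.79% to 16.2%, against 2.74% to 20.7%). The median percentile difference of 10.0 was 23.8 with the stricter threshold, −1.84 with equal numbers of peaks, and 4.73 to 19.6 with a library left out. Of the rank calls, 16 up and 6 down were left at an overlap of 50%, where fewer regions were tested; 31 rose in the 250 bp window and 27 at more than 20 kb, where fewer members remain; 24 fell with equal numbers of peaks; and with a library left out 8 to 82 rose and 3 to 48 fell. With the centred log2 pileup 8 rose and 39 fell, and with ranks by −log10 p 0 rose and 2 fell, where the cause was not tested. At an unadjusted p under 0.05 limma gave 171 members up and 114 down. The labels do not say that replicate numbers mark a shared batch. Across regions called in all lists the deviations of same-numbered libraries had a correlation of −0.143. Ranks within a list do not show an effect on the whole list, and a shared batch was not tested. With the number as a replicate block 55 members rose and 17 fell, and 46 and 13 of these were also called without it. With the crossed pairing as the replicate block 97 rose and 48 fell. No share over all regions is given beside the counts of rank calls in the alternatives. In the named lncRNAs no direction of a rank call turned under ranks by −log10 p or with a library left out. The first MIR17HG region passed downward with the stricter threshold and with equal numbers of peaks.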
